A study of Mus musculus with 19 samples.

Results

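Loss of Smad4 in cortical astrocytes was examined in mice with an intact Fmr1 gene, by setting 6 Smad4 cKO libraries against 4 WT libraries, which together are 10 of the 19 libraries of the series. The other 9 are labelled as Fmr1 knockout. All mice were C57BL/6J with 1 copy of the X-linked Fmr1 (+/y or -/y), all carried Smad4 fl/fl alleles, and all were aged postnatal day 26 to 28. Smad4 cKO mice were Fmr1 +/y, Smad4 fl/fl and GFAP-cre+, whereas WT mice were Fmr1 +/y, Smad4 fl/fl and GFAP-cre-, so WT here means floxed and without Cre. Cre came from the Gfap-Cre73.12 line, in which the promoter of Gfap, an astrocyte intermediate filament gene, drives the recombinase. The labels do not say in which share of the sorted nuclei Cre had acted. The groups labelled Fmr1 -/y, here Fmr1 KO;Smad4 cKO (4 libraries, GFAP-cre+) and Fmr1 KO (5 libraries, GFAP-cre-), were used for the shared estimate of spread and for a closing comparison. Nuclei were freed from dissected cortex and sorted as positive for SOX9, a transcription factor of astrocytes, and negative for NEUN, a protein of neuronal nuclei, and their RNA was sequenced after removal of ribosomal RNA. Of 24537 genes listed, the 15049 with a mean of at least 1 TPM (an abundance scaled for transcript length and library total) over the 19 libraries were tested. Levels are given as TPM scaled between libraries. Differences are Smad4 cKO minus WT on the log2(scaled TPM + 1) scale with their SE, which understates the change of low genes, and adjusted p-values come from limma with Benjamini-Hochberg adjustment over all 15049 genes.

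SMAD4 is the common partner of the receptor-activated SMAD proteins. Bone morphogenetic proteins (BMPs) activate SMAD1, SMAD5 and SMAD9 through type I receptors such as ACVR1 and BMPR1A, and TGF-beta and activins activate SMAD2 and SMAD3. An activated SMAD joins SMAD4 in the nucleus, where the complex raises or lowers transcription of its targets. Classic BMP targets are the Id genes, which encode helix-loop-helix proteins that hold other transcription factors off DNA. The pathway also switches on its own inhibitors, among them inhibitory SMADs and membrane proteins that trap receptor-activated SMADs. In brain, BMP signalling is known for promoting astrocyte differentiation and maturation.

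The listed TPM summed to between 676640 and 713279 in the Smad4 cKO libraries and between 688627 and 716222 in the WT libraries, and TPM keeps no read counts, so depth is unknown and counting error cannot be computed. Between 17513 and 18692 genes lay above 0 in these 10 libraries. Rn45s, the precursor of ribosomal RNA, made up 21.3 to 35.1% of the listed TPM in Smad4 cKO and 20.7 to 35.7% in WT. Astrocyte markers were high in every library, with Slc1a3, a glutamate transporter of astrocytes, at 486.1 to 608.0 scaled TPM in Smad4 cKO and 500.3 to 636.6 in WT. Other cell types left traces that differed between libraries of the same genotype. The summed level of 24 neuron markers ran from 205.1 to 433.9 scaled TPM in Smad4 cKO and from 223.7 to 499.3 in WT, and Rbfox3, which encodes NEUN, from 1.13 to 9.59 in Smad4 cKO and from 1.17 to 9.11 in WT. The 15 oligodendrocyte markers summed to 268.2 to 3185 in Smad4 cKO and to 315.4 to 1578 in WT. Fewer cells of a type and less RNA per cell cannot be told apart in such bulk libraries. Where no label says that libraries came from separate mice, a p-value measures only the spread between these libraries, and the study's design text calls them biological replicates.

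Smad4 itself did not differ detectably in level. It lay at 29.8, 32.5 and 35.4 scaled TPM in Smad4 cKO (lowest, median and highest of 6) and at 33.1, 36.5, 30.2 and 33.1 in the 4 WT libraries. The groups overlapped, with a log2 difference of -0.04 ± 0.07, and p was 0.538 in a two-sided exact permutation test over the 210 arrangements, whose smallest possible p is 0.00476. The table gives 1 value for the entire gene, so removal of the floxed part could not be read from it. Fmr1 lay at 23.8 ± 2.72 scaled TPM in Smad4 cKO (SD, n = 6) and 26.1 ± 4.27 in WT (SD, n = 4), with adjusted p = 0.812. In the libraries labelled Fmr1 -/y it was not lower, at 35.4 to 38.7 in Fmr1 KO;Smad4 cKO and 36.5 to 41.6 in Fmr1 KO, against 20.6 to 26.8 in Smad4 cKO and 21.6 to 31.5 in WT. All 9 lay above all 10 libraries labelled +/y, which goes against the knockout label at the level of the entire gene. The table does not resolve which part of the gene the reads came from, so it does not check the disrupted part. Gfap, whose promoter drives Cre, stood at 153, 216 and 392 in Smad4 cKO and at 109.6, 129, 135 and 146 in WT. Its groups did not overlap, but the difference of 0.85 ± 0.32 missed the threshold (adjusted p = 0.379).

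Among the genes with the smallest adjusted p, the SMAD inhibitor Pmepa1, the proteoglycan Sdc3, Scube1 and Ltbp3 rose in Smad4 cKO. The BMP-responsive Id3 and Atoh8, the secreted proteins Myoc and Tnc and the BTB-domain gene Btbd3 fell. In total 118 genes passed at an adjusted p under 0.05, which is 0.784% of those tested. Of these, 79 were higher in Smad4 cKO (0.525%) and 39 were lower (0.259%). The change was at least 2-fold for 15 of the higher and 20 of the lower genes. The median size of the difference over the 118 was 0.726 on the log2 scale, against a median difference over all genes of -0.014 with 46.2% above 0. Levels spanned a wide range, from 5 genes averaging under 1 scaled TPM in Smad4 cKO to 16 averaging over 100 in either group. The 6 Smad4 cKO values lay entirely on one side of the 4 WT values for 116 of the 118 genes, and for 342 of all genes tested (2.27%), 208 of them higher (1.38%) and 134 lower (0.89%). The libraries came from postnatal day 26 (3 Smad4 cKO and 1 WT), day 27 (2 and 2) and day 28 (1 and 1), and with the day as a factor in the fit 119 genes passed, 102 of them among the 118.

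**Figure D1:**
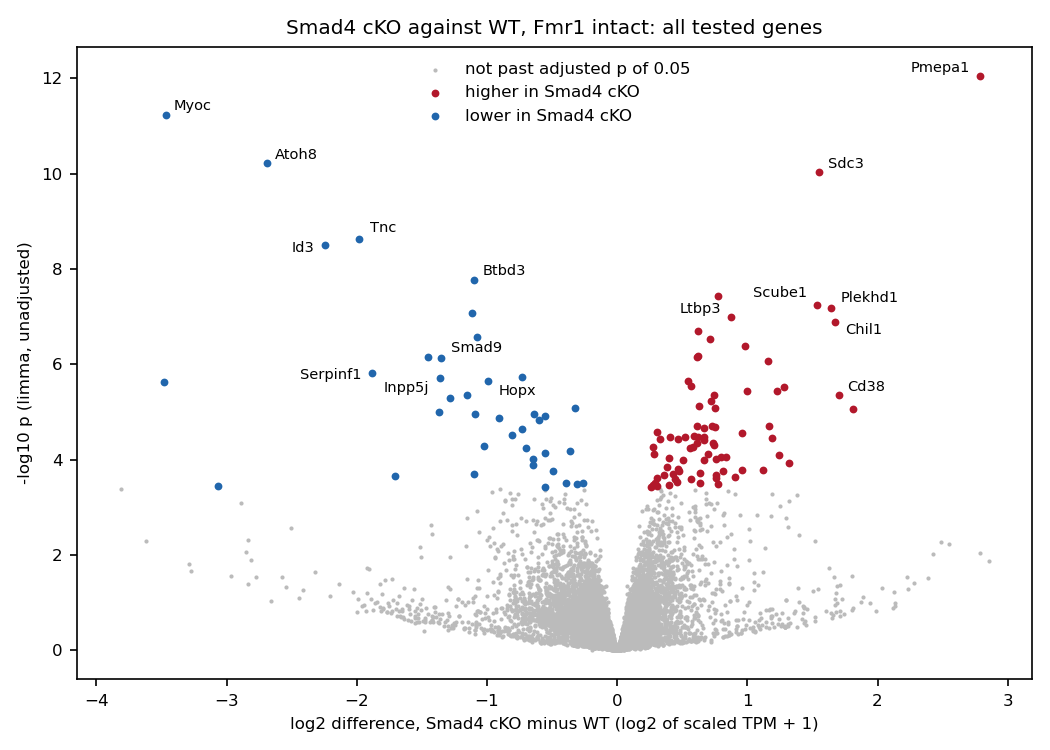
Each point is 1 of 15049 genes, with the log2 difference, Smad4 cKO minus WT, on the horizontal axis and -log10 of the unadjusted limma p on the vertical axis; red and blue points are the 79 higher and 39 lower genes. Pmepa1 stands alone at the upper right with a log2 difference of 2.79, and the protein-coding Myoc and Atoh8 lie far to the left at -3.47 and -2.69.

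The most certain change was in Pmepa1, which encodes a membrane protein that binds receptor-activated SMADs and keeps them from their receptors. The gene spans chr2:173224458-173276533 (GRCm38, GENCODE vM21, as for the other gene positions here). It lay at 115, 141 and 158 scaled TPM in Smad4 cKO and at 13.7, 22.4, 18.7 and 22.6 in WT. No WT library came near the lowest Smad4 cKO library, and the ratio of means was 7.13 (log2 difference 2.79 ± 0.15, adjusted p = 1.3e-08). Ldlrad4, a relative of Pmepa1 with the same SMAD-binding role, also rose, to 18.6, 23.3 and 27.03 in Smad4 cKO, against 9.38, 13.7, 10.2 and 11.2 in WT (log2 difference 0.98 ± 0.12, adjusted p = 3.6e-04). Skil, whose product SnoN is a co-repressor that binds SMADs, was at 17.2, 19.1 and 25.8 in Smad4 cKO and at 11.2, 13.4, 12.3 and 9.44 in WT, with adjusted p = 0.0315. All 3 genes kept the groups apart. The Skil call was lost in 6 of the 10 fits that each left out 1 library (without Smad4 cKO replicates 1, 3 or 5 or WT replicates 1, 3 or 4; adjusted p up to 0.104), while Pmepa1 and Ldlrad4 passed in all 10. They were the 3 of 15 intracellular inhibitors of SMAD signalling that passed, and the list had a median difference of 0.125 with 11 of 15 members above 0. The classic feedback inhibitor Smad7 did not pass, at 27.8, 40.7 and 56.1 scaled TPM in Smad4 cKO and 27.7, 24.99, 31.3 and 28.2 in WT (adjusted p = 0.592). The lowest Smad4 cKO library lay among the WT libraries. Smurf2, a ubiquitin ligase of the pathway, was at 32.6 ± 1.33 in Smad4 cKO and 27.7 ± 1.82 in WT (adjusted p = 0.0841).

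Among the 16 receptors and co-receptors, 1 passed. Acvr1, the BMP type I receptor also called ALK2, was at 20.7, 23.3 and 27.6 scaled TPM in Smad4 cKO and at 13.3, 15.4, 14.5 and 16.2 in WT (log2 difference 0.62 ± 0.08, adjusted p = 5.4e-04). Its lowest Smad4 cKO value lay above the highest WT value. Bmpr1a, another BMP type I receptor, lay on the other side, at 32.9, 34.9 and 38.3 in Smad4 cKO and 41.8, 45.5, 42.9 and 41.5 in WT. Its groups did not overlap either, but it missed the threshold (log2 difference -0.28 ± 0.07, adjusted p = 0.0701) and passed with quantile normalization (0.028) and with TPM rescaled to the total without Rn45s. Over all 25 other settings of the fit, the adjusted p of Bmpr1a ran up to 0.274. Acvr1 passed whichever of the 10 libraries was left out. The median over the 16 was -0.054, with 6 above 0.

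Of the 6 receptor-regulated and common SMADs, Smad9 was the member that passed. This SMAD is activated by BMP receptors and is itself induced by BMPs, and the gene spans chr3:54755582-54801257. It fell to 1.76, 2.73 and 4.78 scaled TPM in Smad4 cKO, against 8.25, 9.36, 10.7 and 7.65 in WT, a 3.01-fold lower mean (log2 difference -1.36 ± 0.18, adjusted p = 5.4e-04). Its relatives lay close to their WT levels. Smad1 averaged 21.4 ± 2.43 in Smad4 cKO and 23 ± 3.90 in WT, and Smad5 averaged 34.6 ± 1.72 in Smad4 cKO and 33.2 ± 1.15 in WT. The list median was -0.061. Smad2 and Smad3, which carry TGF-beta and activin signals, had log2 differences of 0.20 ± 0.07 and -0.08 ± 0.13, with adjusted p = 0.338 and 0.929.

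**Figure D2:**
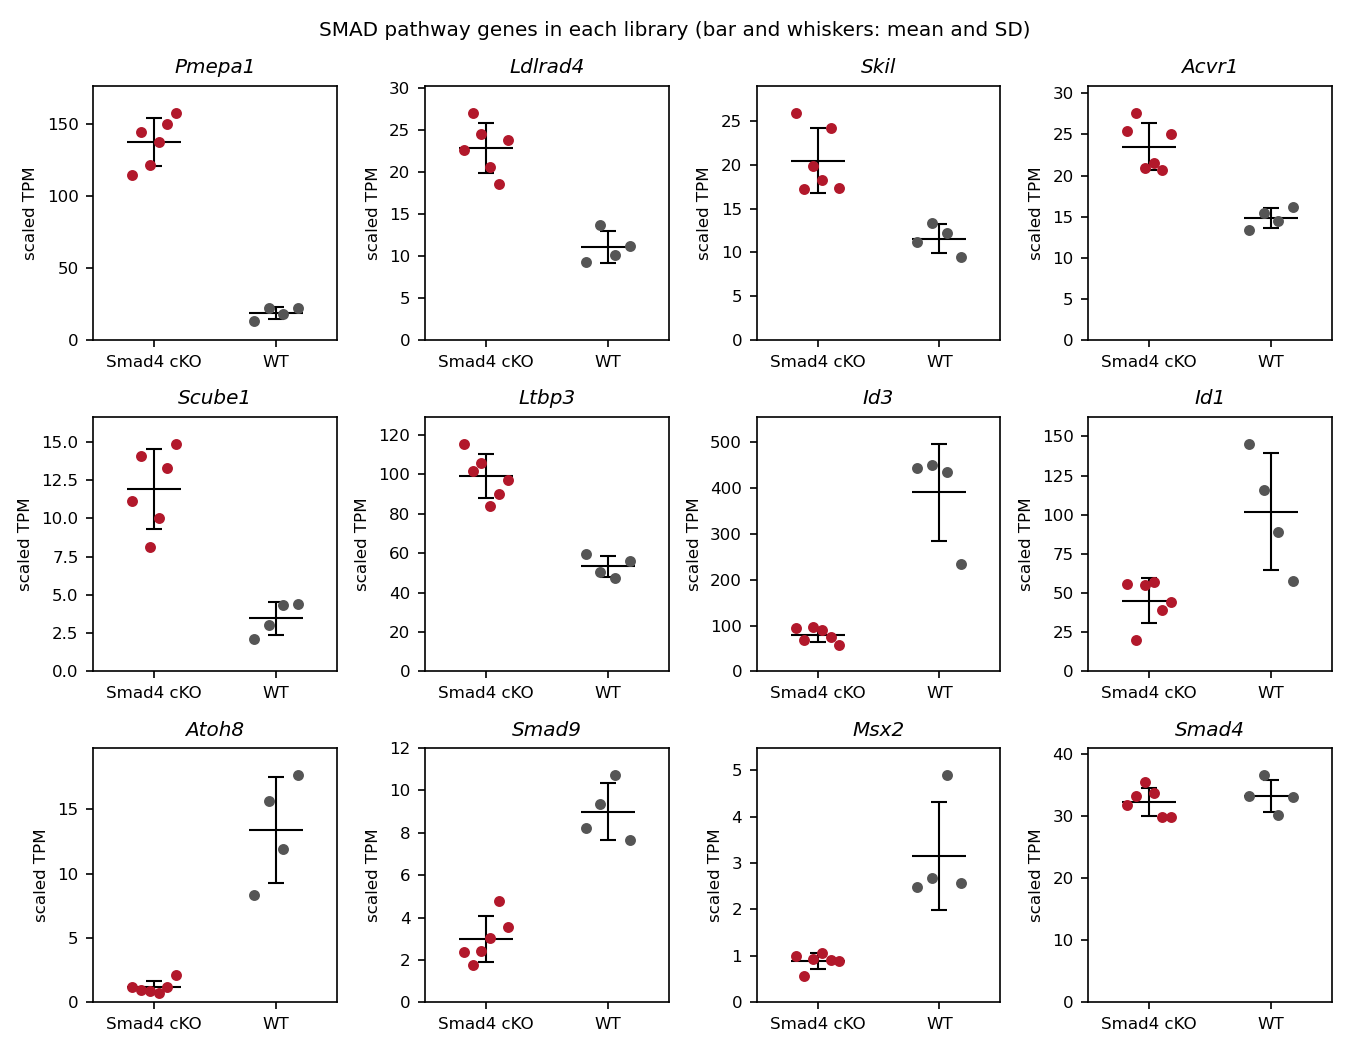
Scaled TPM of 12 pathway genes in the 6 Smad4 cKO libraries (red) and the 4 WT libraries (grey), with the mean and SD as a bar and whiskers; each panel has its own axis, starting at 0. The groups stay apart in the panels of the 10 genes that passed and in Id1, which did not pass (adjusted p = 0.122), whereas those of Smad4 overlap.

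Of 20 BMP-responsive transcriptional regulators, 4 passed and all 4 were lower in Smad4 cKO: Id3, Atoh8, Hopx and Msx2. The list had a median difference of -0.345, with 13 of 20 below 0. Id3 (chr4:136143497-136145755) fell to 57.6, 81.7 and 96.2 scaled TPM in Smad4 cKO, against 444, 450.1, 434 and 233 in WT, a 4.87-fold lower mean (log2 difference -2.24 ± 0.20, adjusted p = 8.0e-06). WT replicate 4 stood well below the other WT libraries and still above every Smad4 cKO library. Atoh8 (chr6:72206177-72235577), a basic helix-loop-helix factor, fell to a level near 1, at 0.766, 1.08 and 2.12 in Smad4 cKO and 8.37, 15.6, 11.9 and 17.6 in WT (log2 difference -2.69 ± 0.19, adjusted p = 3.0e-07). The highest Smad4 cKO library lay far below the lowest WT library. Hopx, a small homeodomain protein that does not bind DNA, was at 15.7, 21.04 and 24.4 in Smad4 cKO and 39.4, 41.9, 51.5 and 36.3 in WT (adjusted p = 0.00123). Msx2, a homeobox repressor, was low in both groups, at 0.569, 0.922 and 1.07 in Smad4 cKO and 2.47, 2.67, 4.89 and 2.58 in WT. Its adjusted p of 0.0313 was lost in 9 of the 10 fits that each left out 1 library, all but that without WT replicate 4, with adjusted p up to 0.152.

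The other Id genes did not pass with all libraries in the fit. Id1 was at 19.8, 49.6 and 57.2 scaled TPM in Smad4 cKO and 145, 116, 89.2 and 57.4 in WT (log2 difference -1.15 ± 0.31, adjusted p = 0.122). Its highest Smad4 cKO library and its lowest WT library, replicate 4, nearly met. Without WT replicate 4 it passed, with a difference of -1.40 and adjusted p = 0.0477. Over the 10 fits that each left out 1 library, the Id1 difference ran from -1.40 to -0.94 and its adjusted p up to 0.354. Id4 was at 160.2, 208 and 258 in Smad4 cKO and 471, 372, 411 and 256 in WT (log2 difference -0.83 ± 0.19, adjusted p = 0.0577). WT replicate 4 again gave the lowest WT value, inside the Smad4 cKO range. Id4 passed without that library (adjusted p = 0.0165) and under 6 other settings, among them quantile normalization (adjusted p = 0.00394). In the fits that each left out 1 library its adjusted p also ran up to 0.218. Id2 was at 166, 211 and 262 in Smad4 cKO and 438, 308, 341 and 201 in WT, with adjusted p = 0.604, and its groups overlapped. Msx1, a paralogue of Msx2, had a log2 difference of -0.36 ± 0.17 with adjusted p = 0.622.

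Promoter sequences of Id3, Atoh8, Smad9 and Sdc3 are shown because their genes are among the strongest changes, 3 lower and 1 higher. They run from 250 bases before to 50 after the annotated start, on the strand of the gene, from RefSeq on GRCm38.p6. Capitals mark matches to CAGAC, the core that SMAD3 and SMAD4 are known to bind, and to GGCGC, a GC-rich element known for SMAD1 and SMAD5, both searched on both strands (as GTCTG and GCGCC on the other strand, where GGCGC and GCGCC can overlap). The regions are chr4:136143572-136143871 for Id3, chr6:72235528-72235827 on the minus strand for Atoh8, chr3:54755332-54755631 for Smad9 and chr4:130792287-130792586 for Sdc3. The RefSeq start used for Id3 differs from the GENCODE start, and the Id3 window lies wholly inside the GENCODE span of the gene (chr4:136143497-136145755).
Id3: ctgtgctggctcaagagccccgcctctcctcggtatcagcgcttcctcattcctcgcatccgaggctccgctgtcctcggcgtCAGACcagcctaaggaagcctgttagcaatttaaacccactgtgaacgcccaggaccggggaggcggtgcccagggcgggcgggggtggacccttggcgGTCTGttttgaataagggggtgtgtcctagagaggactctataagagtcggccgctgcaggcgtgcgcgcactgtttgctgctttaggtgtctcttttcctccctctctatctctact
Atoh8: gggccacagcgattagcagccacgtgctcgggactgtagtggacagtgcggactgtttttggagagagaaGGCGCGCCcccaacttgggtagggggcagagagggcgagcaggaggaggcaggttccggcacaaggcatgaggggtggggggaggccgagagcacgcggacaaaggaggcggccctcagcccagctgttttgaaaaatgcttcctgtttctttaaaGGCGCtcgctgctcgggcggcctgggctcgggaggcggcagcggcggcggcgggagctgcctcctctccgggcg
Smad9: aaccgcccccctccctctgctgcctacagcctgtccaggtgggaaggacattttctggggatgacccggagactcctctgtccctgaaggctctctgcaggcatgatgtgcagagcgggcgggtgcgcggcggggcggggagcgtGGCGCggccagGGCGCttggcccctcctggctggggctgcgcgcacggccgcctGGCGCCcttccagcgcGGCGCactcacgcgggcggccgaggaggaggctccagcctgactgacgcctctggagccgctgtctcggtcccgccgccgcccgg
Sdc3: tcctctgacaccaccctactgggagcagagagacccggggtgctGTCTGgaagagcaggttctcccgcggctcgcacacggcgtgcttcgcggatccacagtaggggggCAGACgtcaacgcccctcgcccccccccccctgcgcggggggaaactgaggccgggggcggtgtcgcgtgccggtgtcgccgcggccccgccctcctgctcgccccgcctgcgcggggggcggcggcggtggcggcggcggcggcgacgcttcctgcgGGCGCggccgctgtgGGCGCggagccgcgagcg
The Id3 window held 2 matches to CAGAC and 0 to GGCGC, Sdc3 held 2 of each, and Atoh8 and Smad9 held 3 and 5 to GGCGC and 0 to CAGAC. Such short matches are common. CAGAC was in 32 of the 56 promoters found for higher genes (57.1%), in 20 of 33 for lower genes (60.6%) and in 52.6% of the 10873 found for all tested genes. GGCGC was in 69.6%, 66.7% and 68.2% of them in the same order. The palindrome GTCTAGAC was in 1 promoter of a higher gene (1.79%), in 0 of the lower genes and in 0.294% of all.

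Outside the cell, none of the 13 tested ligands of the superfamily passed (20 were listed). Their median was -0.204 with 2 above 0, and 4 of 13 lay under an unadjusted p of 0.05, against 8.28% of all genes. Bmp7 was at 7.39, 12.2 and 17.9 scaled TPM in Smad4 cKO and 16.3, 19.02, 21.2 and 15.8 in WT (adjusted p = 0.459), and Tgfb2 at 12.9, 15 and 18.6 in Smad4 cKO and 16.7, 22.7, 17.6 and 18.5 in WT (adjusted p = 0.350). Both pairs of groups overlapped. Bmp6 was scarce in both, at 2.65 ± 1.01 in Smad4 cKO and 3.00 ± 1.41 in WT.

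Proteins that hold ligands outside the cell included 3 higher genes. Scube1, a secreted and surface glycoprotein reported to bind BMPs, was the 1 of 9 tested BMP and activin antagonists that passed. It rose to 8.12, 12.2 and 14.8 scaled TPM in Smad4 cKO, against 2.14, 3.04, 4.32 and 4.41 in WT (3.43-fold, log2 difference 1.54 ± 0.17, adjusted p = 9.6e-05). Ltbp3 and Ltbp1, which store latent TGF-beta in the matrix, were 2 of the 12 tested genes of latent TGF-beta storage and activation. Ltbp3 was at 84.01, 99.3 and 115 in Smad4 cKO and 59.4, 50.5, 47.4 and 55.9 in WT (log2 difference 0.88 ± 0.10, adjusted p = 1.3e-04). Ltbp1 rose less, to 14.7, 15.2 and 17.7 against 11.2, 11.9, 12.01 and 12.2 in WT, and its adjusted p of 0.0248 was lost in 5 of the 10 fits that each left out 1 library (Smad4 cKO replicates 2 or 4 or WT replicates 1, 2 or 3; adjusted p up to 0.102). Scube1 and Ltbp3 kept their groups apart and passed in all 10 fits. The 14 tested TGF-beta-responsive genes held 0 that passed, with 1 under an unadjusted p of 0.05 and a median of 0.028. Col1a1, a fibrillar collagen, had the smallest p among them, at 24.7 ± 4.71 in Smad4 cKO and 16.4 ± 3.99 in WT (adjusted p = 0.437). The list of TGF-beta-responsive genes did not hold Pmepa1, Ldlrad4 and Skil, which were counted as SMAD inhibitors, or Tnc, counted with the matrix. The 0 therefore covers only the genes in that list.

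**Figure D3:**
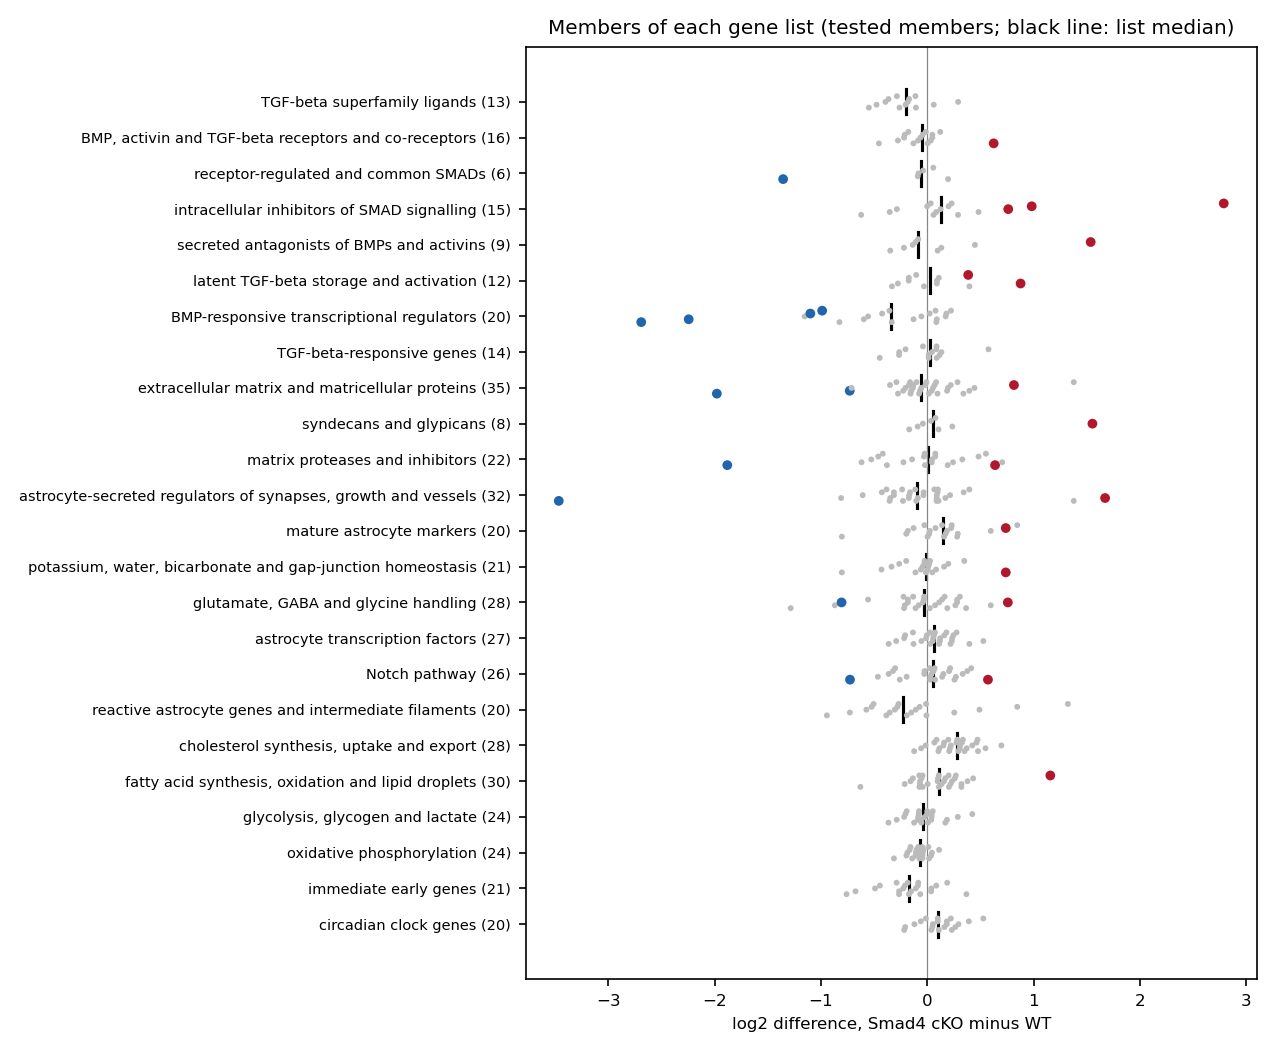
Log2 difference, Smad4 cKO minus WT, of the tested members of 24 gene lists (number tested in brackets), with red and blue points for members that passed, higher and lower, grey points for the others and a black line at each list median. Most members lie within 1 log2 unit of 0, and the outermost points are Pmepa1 at 2.79 and Myoc, Atoh8 and Id3 at -3.47, -2.69 and -2.24.

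In the extracellular matrix, 3 of 35 tested genes passed, and the list median was -0.056. Tnc (chr4:63959785-64047015), the matricellular protein tenascin-C, fell to 9.36, 11.8 and 18.99 scaled TPM in Smad4 cKO, against 45.8, 58.6, 59.1 and 47.6 in WT, a 4.07-fold lower mean (log2 difference -1.98 ± 0.17, adjusted p = 6.9e-06). The highest Smad4 cKO library lay well below the lowest WT one. Sned1, a matrix protein with NIDO and sushi domains, was at 18.6, 20.2 and 26.9 in Smad4 cKO and 26.9, 34.9, 43.8 and 38.3 in WT (adjusted p = 0.00643), and the groups met within 0.1 scaled TPM. Without the 3 libraries with the highest neuron markers (Smad4 cKO replicate 6 and WT replicates 3 and 4), the Sned1 difference was -0.50 with adjusted p = 0.262. That fit, also used below, kept only WT replicates 1 and 2 in the WT group. Smoc1, a secreted calcium-binding protein known from frog embryos as a BMP antagonist, was higher, at 6.16, 9.16 and 10.6 in Smad4 cKO and 4.48, 3.95, 3.62 and 6.13 in WT (adjusted p = 0.0282). The Smoc1 call was lost in 6 of the 10 fits that each left out 1 library (any of Smad4 cKO replicates 1 to 3 or WT replicates 1 to 3; adjusted p up to 0.132). Sparc, an astrocyte-secreted matricellular protein, lay far apart between groups, at 66.7, 113 and 120.4 in Smad4 cKO and 53.2, 49.99, 19.7 and 40.2 in WT. It did not pass (log2 difference 1.38 ± 0.33, adjusted p = 0.0613), and its spread in both groups was wide. Sparc passed under 5 other settings, among them without Smad4 cKO replicate 5 (adjusted p = 0.0481) and with postnatal day as a factor (adjusted p = 0.0372). Over all 25 settings its adjusted p also ran up to 0.529 and its difference down to 0.91.

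Sdc3 (chr4:130792537-130826319), a heparan sulphate proteoglycan of the cell surface, was the 1 of 8 tested syndecans and glypicans that passed. It rose to 60.99, 65.1 and 77.1 scaled TPM in Smad4 cKO, against 21.9, 21.8, 19.5 and 25.04 in WT (3.02-fold, log2 difference 1.55 ± 0.11, adjusted p = 3.5e-07). Both groups were tight and far apart. The other 7 had differences between -0.17 and 0.24, with Gpc4, a synapse-promoting glypican of astrocytes, at 6.07 ± 0.955 in Smad4 cKO and 6.91 ± 0.570 in WT. Among 22 tested matrix proteases and inhibitors 2 passed, and the list median was 0.01. Serpinf1, the secreted anti-angiogenic factor PEDF, fell to 0.310, 0.681 and 1.55 in Smad4 cKO, against 4.47, 7.40, 6.47 and 3.72 in WT (log2 difference -1.88 ± 0.26, adjusted p = 0.00100). The highest Smad4 cKO value was under the lowest WT value. Adamts10, a metalloprotease that acts on fibrillin fibres, was higher at 35.7, 41.2 and 50.9 in Smad4 cKO and 27.4, 33.7, 21.5 and 24.9 in WT. Its adjusted p of 0.0423 was lost in 7 of the 10 fits that each left out 1 library (Smad4 cKO replicates 1 to 4 or WT replicates 1, 3 or 4; adjusted p up to 0.185).

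The protein-coding gene with the lowest difference was Myoc (chr1:162639155-162649693), which encodes myocilin, a secreted glycoprotein. It lay at 0.185, 0.894 and 2.21 scaled TPM in Smad4 cKO and at 17.8, 20.04, 22.3 and 20.8 in WT, a 20.3-fold lower mean (log2 difference -3.47 ± 0.21, adjusted p = 4.3e-08). Chil1, a secreted chitinase-like protein of reactive astrocytes, was higher, at 33.2, 57.1 and 68.9 in Smad4 cKO and 20.4, 15.1, 16.9 and 13.4 in WT (3.37-fold, log2 difference 1.67 ± 0.19, adjusted p = 1.5e-04). These were the 2 of 32 tested secreted regulators of synapses, growth and vessels that passed, and the list median was -0.097. Angpt1, a vessel-stabilising ligand, had groups that did not overlap, at 1.13 to 2.43 in Smad4 cKO and 3.29 to 4.90 in WT, but missed the threshold (adjusted p = 0.168). Vegfa, an angiogenic factor, was at 886 ± 69.3 in Smad4 cKO and 698 ± 59.4 in WT (adjusted p = 0.356). Gas6, a bridging ligand for TAM receptors that was named after its values were seen, fell to 22.6, 30.9 and 34.8 in Smad4 cKO, against 44.8, 46.1, 43.7 and 47.5 in WT (log2 difference -0.60 ± 0.10, adjusted p = 0.00464). Its groups did not overlap, and without the 3 libraries with the highest neuron markers its difference was -0.64 with adjusted p = 0.0526.

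Genes of mature astrocyte function are set beside all tested genes, of which 0.784% passed and 8.28% lay under an unadjusted p of 0.05. Of 20 mature astrocyte markers 1 passed and 4 lay under an unadjusted p of 0.05, and the list had a median of 0.148 with 15 above 0. Kcnj10, the inward-rectifying potassium channel Kir4.1, was at 104, 134 and 144 scaled TPM in Smad4 cKO and 97.2, 58.6, 83.2 and 71.4 in WT (log2 difference 0.74 ± 0.14, adjusted p = 0.0100). The groups lay apart, but without WT replicate 2 the difference was 0.61 with adjusted p = 0.052. In the list of 21 tested potassium and water channels, pumps and gap junction genes Kcnj10 was again the 1 that passed, with a list median of -0.013. Aqp4, the water channel of astrocyte endfeet, had the opposite sign, at 116, 172 and 206 in Smad4 cKO and 338, 262, 369 and 183 in WT, and did not pass (log2 difference -0.80 ± 0.23, adjusted p = 0.141). WT replicate 4 lay inside the Smad4 cKO range. Among 28 genes of glutamate, GABA and glycine handling 2 passed, 9 lay under an unadjusted p of 0.05 and the median was -0.031. Slc6a9, the glycine transporter GlyT1, was higher, at 25.1, 25.6 and 31.98 in Smad4 cKO and 16.5, 12.6, 17.3 and 16.2 in WT (adjusted p = 0.0176). The call was lost without WT replicate 2, where the difference was 0.66 with adjusted p = 0.0889. Slc25a18, a mitochondrial glutamate carrier of astrocytes, was lower, at 60.3, 95.9 and 98.4 in Smad4 cKO and 162, 137, 162 and 162 in WT (log2 difference -0.81 ± 0.14, adjusted p = 0.00823). Slc1a2, the main glutamate transporter of astrocytes, was at 2242 ± 265 in Smad4 cKO and 1846 ± 226 in WT (adjusted p = 0.730). Slc7a10, a transporter of small neutral amino acids including D-serine, had groups that did not overlap, at 488, 542 and 656 in Smad4 cKO and 444, 354, 308 and 386 in WT, with adjusted p = 0.0847.

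Transcription factors of astrocyte identity held 0 that passed among 27 tested, with 5 under an unadjusted p of 0.05 and a median of 0.061. Lhx2 came closest, at 70.3 ± 5.60 scaled TPM in Smad4 cKO and 86.2 ± 4.08 in WT (adjusted p = 0.109). In the Notch pathway 2 of 26 tested genes passed, in opposite directions, and the median was 0.05. Notch3, a receptor, rose to 30.7, 34.9 and 39.5 in Smad4 cKO, against 24.2, 23.6, 20.03 and 23.9 in WT (log2 difference 0.57 ± 0.08, adjusted p = 0.00147). Tle2, a Groucho-type co-repressor that works with HES proteins, fell to 21.2, 23.98 and 30.5 in Smad4 cKO, against 47.6, 36.4, 39.4 and 42.2 in WT (log2 difference -0.73 ± 0.10, adjusted p = 0.00115). Neither pair of groups overlapped. Without the 3 libraries with the highest neuron markers, the Notch3 difference was 0.51 with adjusted p = 0.0668. Pdgfrb, a pericyte marker, is given beside Notch3, which mural cells also express: it ran from 79.7 to 110.5 in Smad4 cKO and from 64.5 to 92.2 in WT, and the part of such cells in the result was not tested. The 16 mural cell and fibroblast markers, of which 12 were tested, summed to 158.4 to 338.4 in Smad4 cKO and 143.1 to 300.3 in WT. Of the 12, 7 had a difference above 0, among them Pdgfrb. The other 5 were below 0, among them Rgs5, Abcc9, Vtn and Acta2.

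Reactive astrocyte genes and intermediate filaments held 0 that passed among 20 tested, with 5 under an unadjusted p of 0.05. The 0 covers only the genes in this list. It did not hold Chil1, the chitinase-like protein of reactive astrocytes given above, which passed among the secreted regulators. The list median was -0.232 and 4 members were above 0, among them Gfap. C4b, a complement gene, was at 64.7, 116 and 199 scaled TPM in Smad4 cKO and 39.1, 63.1, 30.7 and 52.6 in WT (log2 difference 1.32 ± 0.32, adjusted p = 0.0724). Ptx3, a pentraxin, was at 0.357, 1.18 and 1.32 in Smad4 cKO and 4.42, 2.66, 2.18 and 1.93 in WT, without overlap (adjusted p = 0.228).

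Pnpla3, an enzyme of lipid droplets, rose to 20, 25.8 and 28.4 scaled TPM in Smad4 cKO, against 8.86, 7.48, 13.5 and 13.9 in WT (2.29-fold, log2 difference 1.16 ± 0.15, adjusted p = 5.9e-04). It was the 1 of 30 tested genes of fatty acid synthesis, oxidation and lipid droplets that passed, the list median was 0.108, and the groups did not overlap. Cholesterol synthesis, uptake and export held 0 that passed of 28, with 7 under an unadjusted p of 0.05, a median of 0.278 and 25 members above 0. Mvd, an enzyme of the mevalonate pathway, was at 42.8, 73.9 and 91.9 in Smad4 cKO and 39.7, 33.2, 43.7 and 49.6 in WT (log2 difference 0.70 ± 0.26, adjusted p = 0.378). Its lowest Smad4 cKO library lay among the WT libraries. Glycolysis, glycogen and lactate genes (24 tested, 2 under an unadjusted p of 0.05, median -0.039), oxidative phosphorylation genes (24 tested, 0 under it, median -0.067), immediate early genes (21 tested, 0 under it, median -0.173) and circadian clock genes (20 tested, 1 under it, median 0.103) held 0 that passed.

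Other genes among the 30 with the smallest adjusted p carried varied functions. Btbd3, a BTB-domain protein known from mouse cortical neurons for orienting dendrites, fell to 23.1, 24.1 and 26.4 scaled TPM in Smad4 cKO, against 58.9, 56.8, 52.3 and 45.9 in WT (log2 difference -1.10 ± 0.11, adjusted p = 3.6e-05). Ddit4l, an inhibitor of mTOR signalling, was at 12.98, 15.5 and 22.02 in Smad4 cKO and 40.4, 30.7, 38.2 and 34.4 in WT (adjusted p = 1.2e-04). Inpp5j, a phosphatase of inositol phospholipids, was at 9.74, 12.6 and 22.5 in Smad4 cKO and 39.97, 31.4, 37.99 and 36.3 in WT (adjusted p = 0.00115). All 3 kept the groups apart. On the higher side, Plekhd1, a protein with a pleckstrin homology domain, was at 13.7, 14.4 and 21.7 in Smad4 cKO and 3.40, 4.33, 3.87 and 5.97 in WT (3.59-fold, adjusted p = 1.0e-04). Ap3s1, a subunit of the AP-3 vesicle adaptor, had a smaller and tight difference, at 70.99 ± 4.22 in Smad4 cKO and 41.02 ± 3.46 in WT (adjusted p = 7.1e-05). Rimklb, an enzyme that joins N-acetylaspartate and glutamate, was at 103 ± 11.4 in Smad4 cKO and 61.8 ± 3.00 in WT (adjusted p = 2.8e-04). Prrt1, a membrane protein associated with AMPA receptors, was at 292 ± 26.9 in Smad4 cKO and 190.3 ± 12.7 in WT, and Kifc3, a minus-end-directed kinesin, at 139.5 ± 15.04 in Smad4 cKO and 94.9 ± 6.36 in WT, with adjusted p of 5.4e-04 and 0.00123. These 4 genes also separated the groups completely.

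Several secreted factors and receptors of other pathways were higher. They are described together after their values were seen. Cd38, an ectoenzyme that consumes NAD, reached 22.7, 36.5 and 40.9 scaled TPM in Smad4 cKO, against 9.69, 11.3, 6.66 and 11.2 in WT (3.49-fold, log2 difference 1.70 ± 0.26, adjusted p = 0.00190). The groups lay far apart. Without the 3 libraries with the highest neuron markers its difference was 1.56 with adjusted p = 0.08. From Wnt signalling, Lgr6, an R-spondin receptor, was at 11.7, 14.1 and 20.4 in Smad4 cKO and 5.56, 4.83, 6.51 and 5.25 in WT (adjusted p = 0.00173). Rspo3, an R-spondin, was at 2.38, 5.28 and 6.52 in Smad4 cKO and 1.74, 2.26, 1.14 and 1.82 in WT (adjusted p = 0.0274). Lrp5, a Wnt co-receptor, was at 15.4, 16.3 and 18.2 in Smad4 cKO and 10.2, 13.8, 8.17 and 11.4 in WT (adjusted p = 0.0360). All 3 kept the groups apart. The call was lost in 8 of the 10 fits that each left out 1 library for Rspo3 (all but Smad4 cKO replicate 5 and WT replicate 2; adjusted p up to 0.127) and in 9 for Lrp5 (all but WT replicate 2; up to 0.16), and in 0 for Lgr6. Eda, a TNF-family ligand, was at 21.8 ± 2.30 in Smad4 cKO and 10.5 ± 2.28 in WT (adjusted p = 0.00173), and without the same 3 libraries its difference was 0.92 with adjusted p = 0.056. Rspo3, Lrp5, Lif and Paqr6 did not pass without these 3 libraries either. Lif, a cytokine of the interleukin-6 family, was at 11.8, 14.9 and 17.7 in Smad4 cKO and 6.51, 3.90, 7.83 and 4.65 in WT (adjusted p = 0.0153). Without WT replicates 2 or 4 the Lif adjusted p was 0.0791 and 0.0526, with differences of 1.10 and 1.17. Paqr6 and Pgr, a membrane and a nuclear progesterone receptor, had log2 differences of 1.32 ± 0.27 and 0.77 ± 0.17, with adjusted p of 0.0204 and 0.0443. Smad4 cKO replicate 5 lay far below the other Smad4 cKO libraries for Paqr6, at 59.2 scaled TPM against a median of 126. The Paqr6 call was lost in 5 of the 10 fits that each left out 1 library (Smad4 cKO replicates 1 to 3 or WT replicates 2 or 3; adjusted p up to 0.0895), and that of Pgr in 8 (all but Smad4 cKO replicate 3 and WT replicate 3; up to 0.184).

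Genes better known from neurons were found on both sides. Grin3a, an NMDA receptor subunit, was at 3.12, 4.85 and 7.18 scaled TPM in Smad4 cKO and 9.27, 13.2, 15.6 and 15.3 in WT (log2 difference -1.28 ± 0.20, adjusted p = 0.00215). Nrp2, a semaphorin receptor, was at 1.97, 2.75 and 3.64 in Smad4 cKO and 3.98, 6.54, 6.02 and 7.55 in WT (adjusted p = 0.00436), and Fxyd6, a regulator of the sodium pump, at 1.33, 2.06 and 5.21 in Smad4 cKO and 5.70, 7.39, 8.13 and 9.71 in WT (adjusted p = 0.00361). In contrast Ncam2, a cell adhesion molecule, was at 39.9 ± 4.21 in Smad4 cKO and 24.1 ± 4.97 in WT (adjusted p = 0.00243), and Syn2, a synapsin, at 61.97 ± 8.45 in Smad4 cKO and 40.2 ± 6.51 in WT (adjusted p = 0.00601). Both were higher in Smad4 cKO. With the compared groups fitted alone, 61 of the 118 calls were lost, among them these 5. Their adjusted p was 0.0529 for Grin3a and Ncam2, 0.0747 for Nrp2, 0.063 for Fxyd6 and 0.0846 for Syn2. Beside these stand the neuron markers themselves, of which 0 of 23 tested passed and 0 lay under an unadjusted p of 0.05. Their median was -0.469 and 3 of 23 were above 0, with the summed level given above. Without the 3 libraries with the highest neuron markers the difference of Grin3a was -1.13 (adjusted p = 0.0703) and that of Nrp2 was -0.80 (adjusted p = 0.0703). In that fit, which kept only WT replicates 1 and 2 in the WT group, 57 genes passed in all. Of these 40 were higher and 17 lower, and 46 were among the 118. Of the 26 genes of the lists above that passed among all libraries, 16 passed there too. The other 10 (Adamts10, Kcnj10, Ltbp1, Msx2, Notch3, Skil, Slc25a18, Slc6a9, Smoc1 and Sned1) did not, with adjusted p from 0.0668 to 0.416. Why these calls were lost was not tested. With scores of cell-type markers as covariates 83 genes passed, and 74 of them were among the 118.

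Markers of the remaining cell types held 0 that passed. Oligodendrocyte markers had a median of 0.315 with all 15 above 0 and 0 under an unadjusted p of 0.05, and Smad4 cKO replicate 1 alone reached a summed level of 3185 scaled TPM. The medians were 0.171 for oligodendrocyte precursors, -0.038 for microglia and macrophages, -0.009 for endothelial cells, 0.060 for mural cells and fibroblasts, -0.344 for ependymal and choroid plexus cells and -0.334 for neural progenitors and neuroblasts. Of these, 2 of the 12 tested mural and fibroblast markers and 0 of the others lay under an unadjusted p of 0.05.

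Some of the 118 genes overlap or lie close together. Those that overlap may not be separate measurements, because no source used here gives the features counted or says whether counting was by strand. In the annotation (GENCODE vM21 on GRCm38), 32 of the 117 genes that could be placed overlapped another tested gene. The same share over all tested genes was not computed, so this count and the pairs below only describe the 118. Ppp3r2, a calcineurin subunit, lies within Grin3a on the same strand, and both were lower (log2 differences of -1.16 and -1.28). On chromosome 7, Cd81, a tetraspanin, overlaps R74862 and ends 1315 bases from Tssc4, and all 3 were higher (0.67, 0.59 and 0.83). On chromosome 18, Cdo1, which makes a precursor of taurine, and Ap3s1 lie 13481 bases apart and both were higher (0.67 and 0.78). On chromosome 5, Ppef2, a phosphatase, and Naaa, a lysosomal amidase of ethanolamide lipids, lie 1381 bases apart and both were lower (-0.56 and -0.65). Pairs farther apart could differ in sign, such as Myoc and Prrx1, which lie 595426 bases apart on chromosome 1 (-3.47 and 0.31). Of the genes named for their position, Ap3s1 and Myoc passed without the 3 libraries with the highest neuron markers and the others did not.

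**Figure D4:**
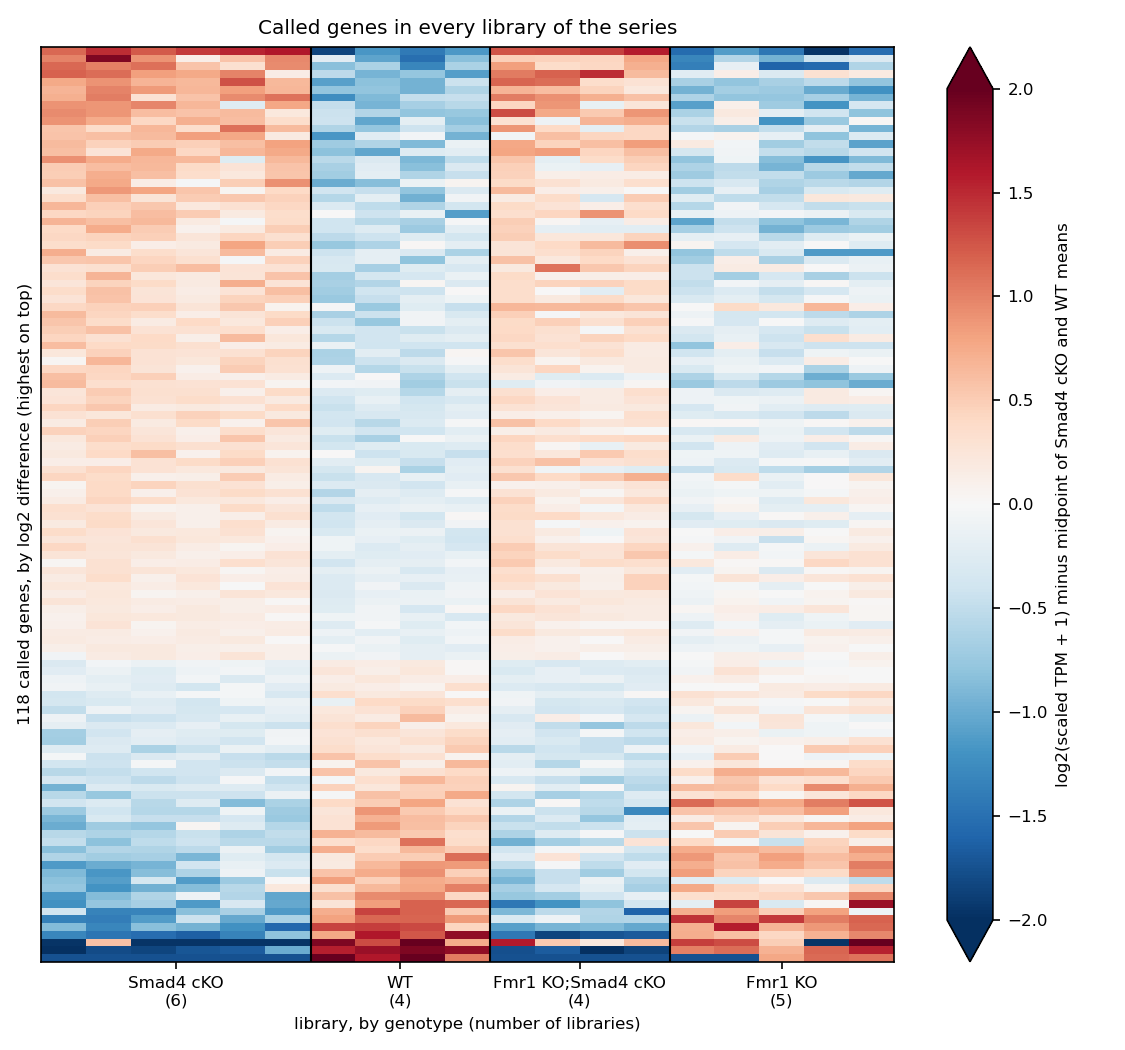
The 118 genes that passed (rows, highest log2 difference on top) in all 19 libraries (columns, grouped by genotype), coloured by log2(scaled TPM + 1) minus the midpoint of the Smad4 cKO and WT means, so red is above the midpoint and blue below. The 6 Smad4 cKO columns and the 4 Fmr1 KO;Smad4 cKO columns are mostly red above and blue below, and the 4 WT columns mostly the reverse; the 5 Fmr1 KO columns resemble WT less evenly.

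Each Smad4 cKO library lay on the Smad4 cKO side of the midpoint between the group means for 113 to 118 of the 118 genes, and each WT library for 2 to 5. These counts only describe the genes, since the same libraries chose them. The other 9 libraries had no part in the contrast. There the 4 Fmr1 KO;Smad4 cKO libraries lay on the Smad4 cKO side for 114, 105, 101 and 111 genes, and the 5 Fmr1 KO libraries for 16, 29, 14, 35 and 38.

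The same Cre contrast was available in the 9 libraries labelled Fmr1 -/y. Their Fmr1 level went against that label for the entire gene, and the disrupted part could not be checked, as given above. These 9 libraries shared the estimate of spread with the contrast that chose the genes. All 118 differed in the same direction in Fmr1 KO;Smad4 cKO against Fmr1 KO, compared with 59.8% of all tested genes, and 49 of the 118 passed there, among 61 genes that passed in all (0.405%). The median size was 0.571 on the log2 scale in the Fmr1 KO background, against 0.726 where the genes had been chosen, and 103 of the 118 were smaller. Pmepa1 averaged 135 ± 14.1 scaled TPM in Fmr1 KO;Smad4 cKO and 17.6 ± 3.81 in Fmr1 KO (log2 difference 2.89 ± 0.16, adjusted p = 1.4e-08). Id3 averaged 87.4 ± 5.75 in Fmr1 KO;Smad4 cKO and 355 ± 99.8 in Fmr1 KO (log2 difference -1.97 ± 0.21, adjusted p = 1.0e-04). Cd38 averaged 27.6 ± 4.46 in Fmr1 KO;Smad4 cKO and 8.91 ± 4.74 in Fmr1 KO (log2 difference 1.64 ± 0.27, adjusted p = 0.00766). Myoc was at 0.380 to 1.00 in Fmr1 KO;Smad4 cKO and at 9.31 to 17.5 in Fmr1 KO, again without overlap.

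A test of the difference between the backgrounds, which took the Smad4 cKO minus WT difference away from that of Fmr1 KO;Smad4 cKO minus Fmr1 KO, passed for 0 genes (0% of those tested), with 250 under an unadjusted p of 0.05 (1.66%), 15 of them among the 118. The 118 were chosen on the Smad4 cKO minus WT difference that enters this test. Their share and their largest gaps were therefore not independent of that choice. Among the protein-coding genes of the 118, the largest gap was at Inpp5j. Its log2 difference was -1.36 ± 0.19 for Smad4 cKO against WT and -0.27 ± 0.20 for Fmr1 KO;Smad4 cKO against Fmr1 KO, a gap of 1.10 ± 0.28 (unadjusted p = 0.00108 from limma, not significant after adjustment). Levels were 11.4 to 20.4 scaled TPM in Fmr1 KO;Smad4 cKO and 15.3 to 22.4 in Fmr1 KO, and those groups overlapped. Btbd3 had differences of -1.10 and -0.58 in the same order, and Hopx of -0.99 and -1.38.

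**Figure D5:**
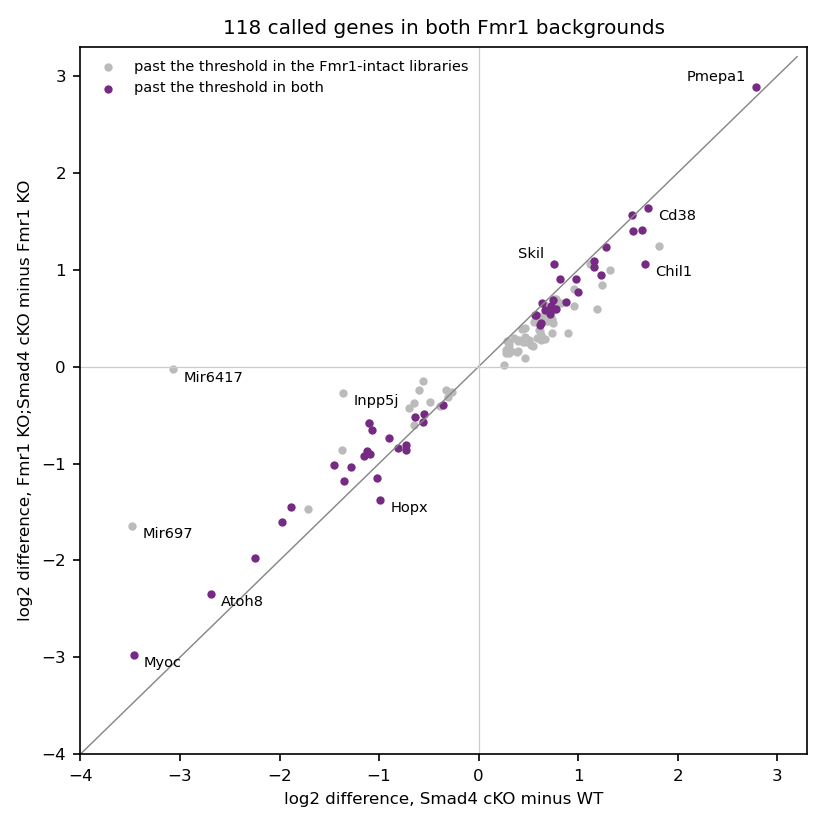
Log2 differences of the 118 genes for Smad4 cKO minus WT (horizontal axis) and for Fmr1 KO;Smad4 cKO minus Fmr1 KO (vertical axis), with the diagonal as a line; purple points are the 49 genes that passed in both and grey points the others. All points lie in the lower left and upper right parts of the plot, most between the diagonal and the horizontal zero line, and Inpp5j at -1.36 and -0.27 is far from the diagonal.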

How the data were processed

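RNA was sequenced from sorted SOX9+NEUN- nuclei of mouse cortex, per the labels. The authors deposited 1 table of TPM values per gene and library. The submitters' processing notes name bcl2fastq 2.20, MultiQC 1.0, STAR 2.5.3a and HOMER 4.10.4 with the mm10 build. The features and strand used for counting are not given in the sources used here. TPM allow no count model, and the sequencing depth is unknown.

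TPM were divided by median-of-ratios factors (0.9207 to 1.069). The median Smad4 cKO minus WT difference of all genes was 3.3e-04 without this step and -0.014 with it. Values of log2(scaled TPM + 1) were tested with limma 3.58.1 in R 4.3.3 (variance trend, group as the only term) over all 19 libraries. Genes with a mean under 1 TPM were left out. Groups came from the labels. Different libraries correlated at 0.8718 to 0.943 and were kept as separate replicates. The script was tested on simulated data. Tables and figures were made with Python 3.11.15, pandas 2.3.3, numpy 2.4.6 and matplotlib 3.10.9. Positions came from GENCODE vM21 on GRCm38 by symbol (14644 of the tested genes, 97.3%, and 117 of the 118 that passed).

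The genes and lists described were chosen with earlier results of these data known. List members that passed are given as the lowest, median and highest Smad4 cKO value and all 4 WT values. Other genes named among the 15 higher and 15 lower with the smallest adjusted p have these values, a mean and SD, or a log2 difference. Predicted (Gm), Rik and microRNA genes among those were not described. Up to 4 members of a list that did not pass are those with the smallest p, and Smad4, Fmr1, Gfap, Id1, Id2, Id4, Bmp6, Smad1, Smad5, Bmpr1a and Sparc were always eligible. Other genes that passed could be named. Alternatives were other scalings, pseudocounts, filters, covariates, weights, a replicate block, the compared groups alone and each library left out. Leaving out the 3 libraries with the highest neuron markers was chosen after seeing the data.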

Additional observations from a re-analysis of the deposited data

Results flagged for a closer look

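Among 257 groups of 4 or 6 values checked for genes that passed and for genes named in every case, 22 (8.56%) held 1 library far from the others, where chance gives about 1 in 20. Smad4 cKO replicate 5 gave 6 of them and WT replicate 1 gave 4.

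Among pathway genes, Id3 stood at 233 scaled TPM in WT replicate 4, against 434 to 450.1 in the other WT libraries, which is still above every Smad4 cKO library. Atoh8 stood at 2.12 in Smad4 cKO replicate 6, against 0.766 to 1.23 in the other Smad4 cKO libraries. Msx2 had 1 such library in each group, at 0.569 in Smad4 cKO replicate 2 and 4.89 in WT replicate 3. Notch3 stood at 20.0 in WT replicate 3, against 23.6 to 24.2 in the other WT libraries, and Rspo3 at 2.38 in Smad4 cKO replicate 5, against 5.24 to 6.52.

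In Smad4 cKO replicate 5, Plekhd1 at 21.7, Ddit4l at 22.02, Lgr6 at 20.4 and Sned1 at 26.9 scaled TPM were above the other Smad4 cKO libraries, and Paqr6 at 59.2 was below them. In WT replicate 1, Reep3 at 19.2, Prkag2 at 17.1 and Adamts6 at 7.69 were below the other WT libraries, and Cd81 at 224 was above them. Slc25a18 stood at 60.3 in Smad4 cKO replicate 1 and at 137 in WT replicate 2, each the lowest of its group. Fxyd6 at 5.21 was highest and Mpv17 at 59.9 lowest in Smad4 cKO replicate 6. Hspb8 stood at 10.3 in Smad4 cKO replicate 3. Smad4 cKO replicate 2 held 2700046A07Rik at 16.1 and Mir6417 at 4.86, and Mir6417 was listed at 0 in the other Smad4 cKO libraries.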

How the results depend on the processing

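Against 118 genes in the analysis as reported, 63 passed with the replicate number as a block (replicate block; 36 higher and 27 lower, 61 of them among the 118), 62 when the 10 libraries were fitted alone (57 among the 118) and 57 without the 3 libraries with the highest neuron markers. The labels do not say whether same-numbered libraries share a litter, sort or batch, and they were treated as unpaired. Their deviations from the group means correlated at 0.1891, 0.0004941, -0.2661 and -0.2388 over genes in the 4 pairs. Such correlations cannot decide whether the libraries were matched. Leaving out 1 library each gave 81 to 129 genes, lowest without WT replicate 2 and highest without WT replicate 4, and 64 of the 118 passed in all 10 of these fits. In the other settings run, 83 to 129 genes passed. Rescaling to the total without Rn45s gave 68 higher of 114 (59.6%), against 66.9% as reported. Over all 25 settings in which they were tested, 31 of the 118 passed throughout (17 higher and 14 lower) and 23 failed in at least as many settings as they passed. The difference between backgrounds passed for 0 genes in each setting run. Of the genes named, sign changes were seen for Smad4 (0.0054 without WT replicate 2), Bmp6 (0.0476 with quantile normalization, 0.0418 with cell-type scores, 0.04 and 0.0463 without WT replicates 2 and 4) and Smad1 (0.0121 without WT replicate 4), none of which passed in the analysis as reported. Their ranges over the fits that left out 1 library were -0.0843 to 0.0054, -0.3216 to 0.0463 and -0.165 to 0.0121. For each count that moved, the cause was not tested. The depth is unknown, so counting error could not be separated from the spread between libraries.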
